A study of Mus musculus with 28 samples.

Results

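Coding sequence in the last exon of genes held 2501 of the 33937 N6-methyladenosine (m6A) regions found in newborn and young mouse brain, or 7.37%. To obtain them, the peaks of all 14 immunoprecipitated (IP) libraries were merged if they shared at least 1 bp of the same strand. A merged region was kept if its midpoint fell in coding sequence of the same strand, outside 3′UTRs and over 200 nt from any stop codon, and if that point lay in the last exon of a coding transcript and in no internal exon. Transcripts with only 1 exon counted as last exons, so 356 of the 2501 regions belonged to single-exon transcripts alone, 2104 to multi-exon transcripts alone and 41 to both kinds. The regions spread over 1769 genes, of which 1293 held a single region, 328 held 2 and 148 held 3 or more. No measured level entered this choice.

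The libraries come from hybrids between the mouse strain C57BL/6J (C57) and the strain PWK/PhJ (PWK), profiled by m6A-seq, in which RNA fragments caught by an antibody against m6A are sequenced. In F1i the mother was PWK and the father C57, in F1r the parents were exchanged, and no library came from a parental strain. Cerebellum is represented by 2 libraries at postnatal day 0 (P0), both labelled male, and 4 at day 7 (P7), cerebrum by 4 libraries at each age, and each F1i library has an F1r partner of the same tissue, age and labelled sex, which gives 7 pairs. All P7 and cerebrum groups hold 1 male and 1 female pair by their labels.

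Most m6A is placed by a methyltransferase complex on the A of a DRACH motif (D is A, G or T; R is A or G; H is A, C or T) while the transcript is being made. Exon junction complexes, the proteins left just upstream of each splice junction, keep the enzyme away from nearby RNA, so that methylation gathers where junctions are far off, in long internal exons and in last exons. Long stretches of coding sequence before the stop codon of a last exon are therefore a place to look for m6A outside its well-known cluster. That cluster lies around stop codons and in the 3′UTR. Regions were placed by their midpoint, so a wide region can still reach into it.

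Several facts about the libraries limit what follows. The labels do not say whether libraries come from separate animals, so every p-value measures the spread between these libraries only. The study's sample sheet puts all cerebellum libraries in one batch and all cerebrum libraries in another, so in every comparison of tissues below the batch cannot be told apart from the tissue. Of the P7 cerebrum F1r libraries, that labelled male carried 7 peaks in Xist, the RNA of the inactive X chromosome, and 0 in the Y-linked gene Kdm5d, while that labelled female carried 3 weak Xist peaks and 1 Kdm5d peak, so both sex labels are contradicted. Sexes were not compared, and results are also given without these libraries. All 8 genes of a list of cerebrum markers had peaks in 8 of 8 cerebrum libraries and in 3 of 6 cerebellum libraries on average, with Emx1 in 0 of 6. Of 8 cerebellum markers 7 had a peak, and over all 8 genes the average was 4.12 of 6 cerebellum and 1.5 of 8 cerebrum libraries, with En2 in 6 and 0, Cbln1 in all 14 and Gabra6, of mature granule cells, in 0 of either tissue. Relative depth ran from 0.566 to 1.59 of the mean library and absolute depth is unknown. Input libraries were not analysed here, so a peak that is present in some libraries only can reflect RNA level as well as methylation, and in whole tissue fewer cells of a type and less RNA per cell cannot be told apart.

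The sequences below show the DRACH motifs nearest the summits of these regions. Each is 29 nt of the GRCm38 (mm10) reference, 5′ to 3′ on the strand of the transcript, around the DRACH nearest the summit of the strongest peak of the region, with the DRACH in capitals. In Tubb2b, Fam171a2 and Zfp445 the A of that motif lay −16, −24 and 23 nt from the summit. The printed stretch does not reach the summit in these genes. The first set comes from regions with the strongest peaks that every library shared: Nlgn2, a neuroligin of inhibitory synapses, Tubb2b, a neuronal β-tubulin, Fam171a2, a membrane protein, and the single-exon genes Ubqln2, a ubiquilin that carries proteins to the proteasome, and Rhob, a small GTPase.
Nlgn2 (chr11:69825694-69825722, minus strand): ccgcttccccggTGACTcgagggactact
Tubb2b (chr13:34128454-34128482, minus strand): ggccgagctggtGGACTctgtcctggacg
Fam171a2 (chr11:102437693-102437721, minus strand): ctgctcgccggaGGACAactcgctaacgc
Ubqln2 (chrX:153499293-153499321, plus strand): gcgcatgtacacTGACAttcaagaaccta
Rhob (chr12:8499359-8499387, minus strand): gtgcttctcggtGGACAgcccggactctc

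The second set comes from regions called in all libraries of 1 tissue and none from the other tissue. Egr3, an activity-induced transcription factor, and Zdbf2, an imprinted gene, stood for cerebrum. Sp5, a transcription factor downstream of Wnt signalling, and Ripk2, a kinase of innate immune signalling, stood for cerebellum.
Egr3 (chr14:70079278-70079306, plus strand): caagccggccttGGACAgcaatcttttcc
Zdbf2 (chr1:63304755-63304783, plus strand): cctggaagatgaAAACTgtgtgtcaagta
Sp5 (chr2:70476178-70476206, plus strand): ttttccacccttGGACTgccgacatgccc
Ripk2 (chr4:16123745-16123773, minus strand): gatcatgaaggaGGACTatgaactcatta

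The third set comes from C2H2 zinc finger genes, whose DNA-binding fingers are mostly coded by the last exon, and whose summits stood out by their motifs. The 4 genes were chosen after their values were seen, as those with the strongest regions in all 14 libraries whose nearest DRACH was AAACT or AAACC.
Zfp563 (chr17:33105507-33105535, plus strand): catactagggaaAAACCctatgactgtaa
Zfp426 (chr9:20470861-20470889, minus strand): gagaagttttatAAACTcaagacttgctg
Zfp445 (chr9:122852354-122852382, minus strand): atcttttgatagAAACTatcgacttgtta
Zfp770 (chr2:114196417-114196445, minus strand): cgaacatagaacAAACTcagagaacattt

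Midpoints of last-exon coding regions were sparse in the first 100 nt after the junction. Along last exons of multi-exon transcripts in genes with any region in the exons of such a transcript, the first 100 nt after the last exon-exon junction held 0.0992 region midpoints per kb of eligible coding sequence, the next 100 nt held 1.08, and the density was highest at 300 to 400 nt, with 1.54, against 1.03 over the whole of this sequence. Of the 2111 regions with their midpoint in this eligible sequence, 12.9% lay within 200 nt of the junction, as did 24.9% of the sequence. Because a wide region cannot have its midpoint close to the edge of an exon without reaching past it, the summit of the strongest peak was placed in the same way, and 0.283 summits per kb fell in the first 100 nt against 1.14 in the next and 1.31 at 300 to 400 nt. Of the 1781 summits in the eligible sequence 19% lay within 200 nt of the junction, and 330 summits fell outside it. These summits come only from regions already chosen by their midpoint. A region across the junction with its midpoint outside the exon was not counted, so the summits cannot remove the edge effect. Beyond 500 nt the density of summits stayed between 0.540 and 0.935 per kb in every bin. Regions are not independent replicates, and this profile is a description with no test.

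**Figure D1:**
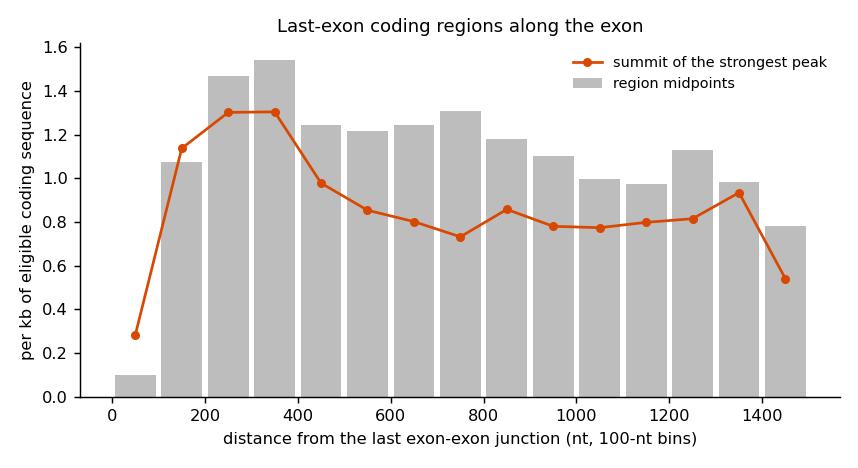
Density of last-exon coding regions (grey bars: midpoints; orange line: summits of the strongest peak) per kb of eligible coding sequence, in 100-nt bins of distance from the last exon-exon junction. The first bin holds 0.0992 midpoints and 0.283 summits per kb, and the highest values, 1.54 and 1.31, lie at 300 to 400 nt.

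The last exons with a region were long, with a median of 2882 nt (quartiles 1929 and 4246 nt), of which the part after the stop codon is untranslated. In exons of up to 500 nt there were only 3 regions, or 0.226 per kb of eligible sequence. The density was 0.912 in exons of 500 to 1000 nt, 1.06 from 1000 to 2000 nt, 1.07 from 2000 to 4000 nt and 0.991 beyond. Eligible sequence in the shortest exons lies near the junction, so their low density cannot be told apart from the edge effect described above. The median distance was 521 nt from the last junction and 618 nt to the stop codon. The limit of 200 nt from stop codons cut no visible step: the 111 regions just inside it, at up to 220 nt, were called in a median of 14 libraries with a median mean percentile of 60.5, and the 100 just outside, at 180 to 200 nt, in 14 with 59.4.

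Last-exon coding regions recurred across libraries. A total of 1286, or 51.4%, were called in all 14 libraries and 178 in 1. The share called in all 14 was 40.4% of the 3809 coding regions in internal exons over 400 nt (long internal exons), 11% of the 898 in shorter internal exons, 48.0% of the 5869 near stop codons and 27.2% of all regions. Width went with it, since the median was 442 nt in last exons, 331 nt in long internal exons, 158 nt in short ones, 282 nt near stop codons and 216 nt over all, and its part in the recurrence was not tested.

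Peaks of these regions were strong within their own lists. Because enrichment is set within each list and cannot be compared between lists, the strongest peak of each region was ranked by its −log10 q, the significance given by the peak caller, among all peaks of its library. The median percentile per library was 66.1 ± 3.04 (SD, n = 14) in last exons against 58.9 ± 5.30 in long internal exons, 41.4 ± 2.97 in short internal exons and 61.6 ± 1.37 near stop codons. The differences of 7.26, 24.7 and 4.56 points each held in 14 of 14 libraries (p = 0.000122 in a two-sided exact sign-flip permutation over libraries, the least this design can give, and 0.000154 after adjustment over 24 tests between classes). The strongest peak of a region was taken, and wider regions can hold more peaks. The part of width in these differences was not tested. Restricting the regions to those over 400 nt from stop codons lowered the difference from long internal exons to 1.93 points (exact sign-flip p = 0.00354). Regions of single-exon transcripts ranked lower than those of multi-exon transcripts, 59.3 ± 3.56 against 67 ± 3.10 (SD, n = 14), a difference of −7.62 points with the same exact permutation p.

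The regions of highest mean percentile among those that every library shared were the following. Fold enrichment at the summit is the pileup of IP reads over the local background in that list, and cerebrum lists gave the higher folds throughout: the median fold of last-exon coding regions was 11.7 to 14 in cerebellum and 16.6 to 20.2 in cerebrum libraries, and near stop codons 9.21 to 11 and 12.8 to 14.2. The folds of a gene are therefore given per tissue and not compared between tissues. In last exons of multi-exon genes, the Nlgn2 region had a fold enrichment of 32.6, 40.6 and 59.8 (lowest, median and highest of 6) in cerebellum libraries and 110, 139 and 167 in cerebrum libraries. Lrrc4b, a leucine-rich repeat adhesion protein of synapses, had 30.9, 32.1 and 42.9 in cerebellum and 79.7, 93.4 and 97.4 in cerebrum. Basp1, a membrane protein of growth cones, had only 17.7, 20.7 and 25.4 in cerebellum and 21.9, 26.7 and 30.4 in cerebrum, yet the highest mean percentile of these genes, 99.9.

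Tubb2b, at 7.81, 9.18 and 10.7 in cerebellum and 9.35, 11.7 and 13.1 in cerebrum, had a low fold at a mean percentile of 99.8. Fam171a2 had 29.7, 31.2 and 38.3 in cerebellum and 76.4, 89.0 and 111 in cerebrum. Lingo1, a receptor component that restrains myelination, had 31.8, 33.9 and 44.1 in cerebellum and 74.8, 103 and 128 in cerebrum. The last exon of Lingo1 is 2228 nt long, and its region spanned 2504 nt of chromosome 9 (56618762 to 56621265, minus strand), more than the exon itself.

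Among single-exon genes, Cstf2t, a polyadenylation factor, had folds of 29.9, 39.7 and 51.1 in cerebellum and 85.2, 102 and 116 in cerebrum. Ubqln2 had 11.9, 25.3 and 29.8 in cerebellum and 52.2, 69.6 and 104 in cerebrum. Magee1, of the MAGE family, had 15.8, 20.7 and 31.4 in cerebellum and 50.8, 61.0 and 71.8 in cerebrum.

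Pcbp1, an RNA-binding protein whose gene arose by retrotransposition, had 11.8, 13.5 and 20.5 in cerebellum and 31.0, 38.9 and 44.1 in cerebrum. Rhob had 13.1, 14.3 and 20.4 in cerebellum and 36.3, 40.1 and 57.7 in cerebrum, and Pnmal2, of the paraneoplastic antigen family, 17.3, 19.6 and 28.2 and 37.1, 43.8 and 52.8. Of the 356 single-exon regions, 161 in 138 genes were called in all 14 libraries.

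The motif GGAC, the commonest core of DRACH, was sought on the strand of the peak at up to 25 nt between its A and the summit. It stood at 47.6% ± 4.58 (SD, n = 14) of summits in last-exon coding regions. As a control, a hit was counted in either of the windows 300 nt to both sides, which together cover more sequence than the summit window. By that count 29.3% ± 1.11 of these summits had GGAC nearby, a difference of 18.3 points (p = 0.000122 by the same exact permutation). At summits, the GGAC share of last exons was lower than in long internal exons (51.7% ± 4.14) in 14 of 14 libraries, with a difference of −4.13 points, lower than near stop codons (50.6% ± 4.83), with −3.05 points, and higher than in short internal exons (40.4% ± 1.94), with 7.22 points (same exact permutation and p for each). For any DRACH the shares were 93.4% ± 1.14 and 93.7% ± 0.628 in last and long internal exons, a difference of −0.290 points (exact permutation p = 0.185). Over the strongest peaks of all 33937 regions, 44.5% had GGAC and 90.6% a DRACH in this window.

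Zinc finger genes stood apart in motif. Of 491 C2H2 zinc finger genes in the annotation (symbols that begin with Zfp, Znf, Zbtb, Zscan or Zkscan and a number), 277 held 454 last-exon coding regions, 2 of them in single-exon transcripts. GGAC stood at 32.3% ± 8.27 of their summits against 50.9% ± 3.6 in the other 2047 regions (SD, n = 14; difference −18.6 points, lower in 14 of 14 libraries, two-sided exact sign-flip permutation p = 0.000122, adjusted p = 0.000154), while any DRACH was more frequent, at 94.7% ± 1.3 against 93.2% ± 1.17 (1.49 points, same p). Without the zinc finger genes, the GGAC share of last exons differed from that of long internal exons by −0.853 points (exact permutation p = 0.0193, adjusted p = 0.0210). By the control count, a hit in either window 300 nt away, 19.9% ± 1.79 of zinc finger summits had GGAC, against 31.3% ± 1.06 of the other summits. The zinc finger regions were also weaker, with a median percentile of 57.8 ± 4.74 against 68.2 ± 2.82, a difference of −10.4 points with the same exact permutation p. The set rests on gene symbols, so zinc finger genes with other symbols, such as Peg3, were counted among the other regions.

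**Figure D2:**
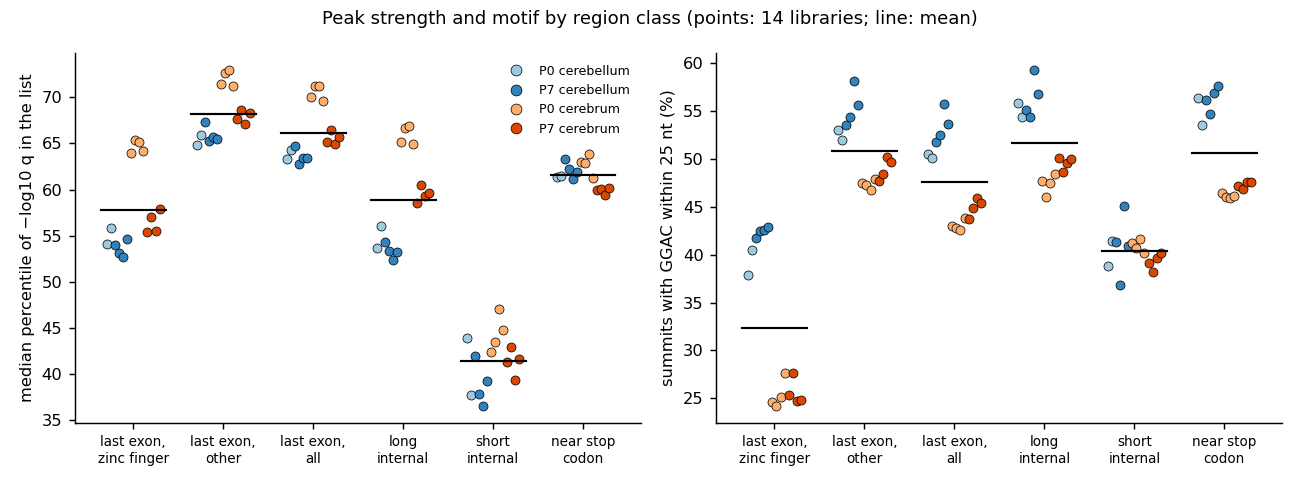
Median percentile of −log10 q within a list (left) and share of summits with GGAC within 25 nt in percent (right) for each class of regions; points are the 14 libraries, lines their means. Last-exon coding regions have a mean of 66.1 on the left, above 58.9 in long internal exons, and zinc finger regions have a mean GGAC share of 32.3% on the right, against 50.9% in the other last-exon regions.

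The DRACH nearest the strongest summit was AAACT in 11.5% of zinc finger regions and AGACT in 11.2%, while AAACC made up 6.83%. The sequences printed above hold AAACT in Zfp426, Zfp445 and Zfp770, and in Zfp563 AAACC. Over all last-exon coding regions GGACA and GGACT led with 10.4% each, and AAACT made up 6.92%. Over all 33937 regions AAACT made up 6.08% and AAACC 2.13%. The C2H2 fingers are joined by a short conserved linker whose amino acids Glu-Lys-Pro can be coded by letters that hold AAACC directly after a Glu codon (GAA or GAG). Of the 31 zinc finger regions with AAACC nearest the summit, 21 had GAA or GAG directly before it, as Zfp563 does, against 7 of 38 in the other last-exon regions. GAAAAACC or GAGAAACC lay within 25 nt of the strongest summit, on its strand, in 7.27% of zinc finger regions, 0.489% of the other last-exon regions and 0.492% of all regions. The reading frame was not checked, and fingers are repeated within and between these genes, so that reads can be placed in the wrong copy and the sites are not independent. The linker belongs to these genes, so a higher share than in other genes is given by the gene family. No windows away from the summits were searched for these letters, so whether summits favour them was not tested.

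Cerebrum libraries held more last-exon coding regions than cerebellum libraries. Their number was 1602 to 1807 in cerebellum (mean 1716 ± 78.7, SD, n = 6) and 1811 to 2102 in cerebrum (mean 1951 ± 97.1, SD, n = 8), a difference of 236 with no overlap between the tissues (p = 0.000666 in a two-sided exact permutation over libraries, 0.00233 after adjustment over 7 measures), or 245 without the P7 cerebrum F1r libraries (exact permutation p = 0.00216). With lists of equal size the difference was 35.0 (exact permutation p = 0.173). As a share of all regions of a library they were the smaller part in cerebrum, 9.93% ± 1.03 against 11.3% ± 0.381 (difference −1.39 points, exact permutation p = 0.0113, adjusted p = 0.0198), which did not pass in P7 libraries alone (−0.436 points, p = 0.143) or at equal list size (−0.390 points, p = 0.0529).

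Set against coding regions in long internal exons, last-exon coding regions were relatively fewer in cerebrum, which was not seen against regions near stop codons. Per coding region in a long internal exon there were 0.749 in cerebellum and 0.673 in cerebrum (log2 difference −0.15, two-sided exact permutation p = 0.000666, adjusted p = 0.00233; −0.17 and p = 0.00216 without the P7 cerebrum F1r libraries), and this held under all 25 alternatives tried, with −0.08 for regions over 400 nt from stop codons and −0.26 when a library's peaks had to cover 50% of a region. Per region near a stop codon there were 0.432 in cerebellum and 0.442 in cerebrum (log2 difference 0.03, exact permutation p = 0.212). The ratio of single-exon to multi-exon regions was 0.158 in both tissues (log2 difference 0.00115, exact permutation p = 0.966).

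Among last-exon coding regions, zinc finger genes had a larger part in cerebrum. Cerebellum libraries held 0.180 to 0.198 zinc finger regions per other last-exon coding region (mean of the logs 0.188, n = 6) and cerebrum libraries 0.204 to 0.246 (0.226, n = 8), with no overlap (log2 difference 0.27, two-sided exact permutation p = 0.000999, adjusted p = 0.00233; 0.30 and p = 0.00216 without the P7 cerebrum F1r libraries). The difference passed under all 23 alternatives, from 0.20 in P7 libraries alone to 0.69 with 50% cover.

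**Figure D3:**
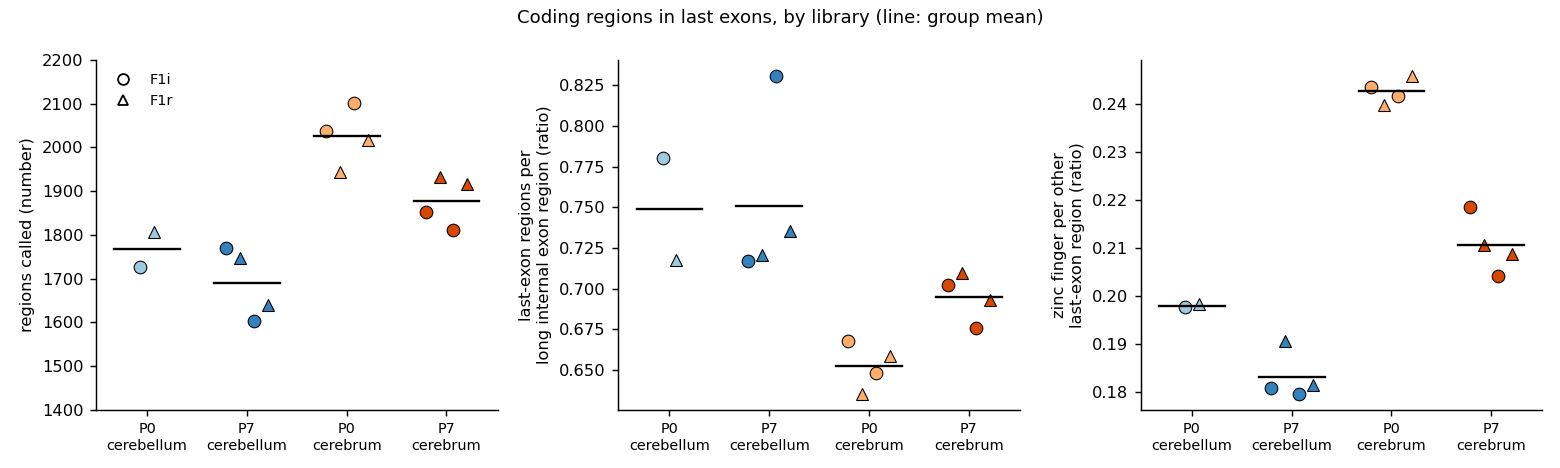
Number of last-exon coding regions per library (left, axis from 1400), their ratio to coding regions in long internal exons (middle) and the ratio of zinc finger to other last-exon regions (right), by age and tissue; circles are F1i, triangles F1r, lines group means. All 8 cerebrum libraries lie above all 6 cerebellum libraries in number and in the ratio of zinc finger to other last-exon regions.

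The tissues also differed in the motifs under the summits of zinc finger regions. GGAC was near 37.9%, 42.1% and 42.9% of zinc finger summits (lowest, median and highest) in cerebellum libraries and 24.2%, 25.0% and 27.7% in cerebrum libraries, a difference of −15.8 points (two-sided exact permutation p = 0.000333, the smallest possible; adjusted p = 0.000370 over 10 tests). In the 203 zinc finger regions called in all 14 libraries, so over the same regions, the shares were 42.9% ± 0.985 (SD, n = 6) and 31.1% ± 2.00 (SD, n = 8), a difference of −11.8 points with the same p. Other classes shifted the same way by less, with −6.28 points in the other last-exon regions, −7.47 in long internal exons and −9.17 near stop codons (exact permutation p = 0.000333 each). The gap between zinc finger and other last-exon regions was −22.7 ± 1.84 points in cerebrum and −13.1 ± 1.76 in cerebellum, a difference of −9.55 (exact permutation p = 0.000333), or −5.91 in the regions of all 14 libraries (p = 0.00167).

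The distance between summits of a shared zinc finger region, as the median over the 203 regions, was 11 to 16 nt for pairs of cerebellum libraries, 6 to 14 nt for pairs of cerebrum libraries and 20 to 34 nt for pairs of different tissues. In the 1083 other regions of all 14 libraries it was 9 to 13, 6 to 10 and 19 to 28 nt. Summits of different tissues were thus farther apart than those within a tissue in both sets. For any DRACH the tissue difference in zinc finger regions was −1.32 points (exact permutation p = 0.0493). This motif comparison and the next were added after values had been seen, and the batches of the tissues cannot be told apart from them.

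Cerebrum regions lay farther from the stop codon. The median distance of a library's last-exon coding regions to the stop codon was 512 to 551 nt in cerebellum (mean 534 ± 13.2, SD, n = 6) and 572 to 610 nt in cerebrum (586 ± 14.9, SD, n = 8), a difference of 52.1 nt (two-sided exact permutation p = 0.000333, the smallest possible; adjusted p = 0.000400 over 6 tests), with 56.2 nt without the P7 cerebrum F1r libraries (p = 0.00216) and 32.5 nt at equal list size (p = 0.000333). In zinc finger regions alone it was 84.8 nt and in the others 42.4 nt, with the same exact permutation p. Regions over 2000 nt from the stop codon made up 5.27% ± 0.647 of the cerebellum and 7.29% ± 0.391 of the cerebrum regions (p = 0.000333, exact permutation), but in zinc finger regions alone the difference was −0.15 points (p = 0.778, exact permutation).

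Single regions were tested by presence. Of the 1215 last-exon coding regions that at least 1 library lacked, 126 were called in a larger share of cerebrum libraries and 24 in a larger share of cerebellum libraries (Fisher's exact test, two-sided, Benjamini-Hochberg adjusted p of at most 0.0483 over 24722 regions). These are 10.4% and 1.98%, beside a background over all regions of 7.78 and 1.87 percent, and beside 14.3% and 1.54% in long internal exons. At equal list size the counts were 80 and 42, and without the P7 cerebrum F1r libraries 65 and 12. Leaving out a cerebellum library lowered the total of 150 to 82 (P0 male F1i), 100 (P0 male F1r), 78 (P7 male F1i), 74 (P7 male F1r), 77 (P7 female F1i) or 75 (P7 female F1r). The share over all regions was not counted for these changed lists and sets of libraries, so these counts have no background beside them. With 4 libraries of each tissue, in P7 libraries or in those labelled male, no region can pass the correction.

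The share called higher in cerebrum was larger far from the stop codon. It was 5.12% of 254 tested regions at 200 to 400 nt, 6.49% of 339 at 400 to 800 nt, 12.5% of 393 at 800 to 1600 nt, 11.8% of 169 at 1600 to 3200 nt and 38.6% of 57 farther away. The share called higher in cerebellum was 3.54%, 2.65%, 1.02%, 1.18% and 0% of the same bins. The 22 calls beyond 3200 nt came from 8 genes, so this is a description with no test.

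A total of 61 regions in 50 genes were called in every cerebrum and no cerebellum library, or 5.02% of those tested beside 4.09 percent of all regions, and 12 regions in 11 genes in every cerebellum and no cerebrum library, or 0.988% beside 0.955 percent. Each has a Fisher's exact p of 0.000333, the smallest possible, and an adjusted p of 0.00660. Among the 61, 28 were in genes that also had a region near the stop codon, and that region was itself called higher in cerebrum in 6 of those cases. Of all 2501 regions, 809 were in genes with a region near the stop codon.

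**Figure D4:**
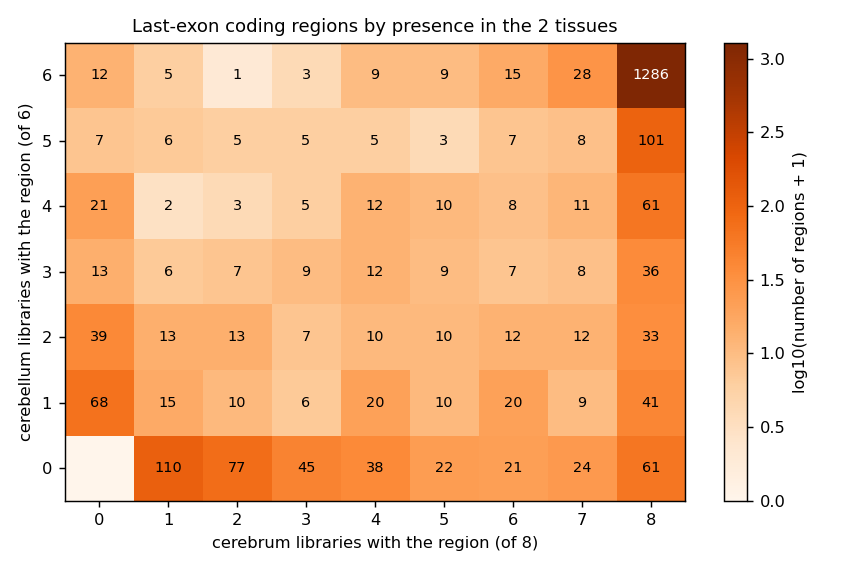
Number of last-exon coding regions for each combination of cerebellum (vertical, 0 to 6) and cerebrum (horizontal, 0 to 8) libraries that called them; the colour is log10 of the number plus 1. The corner of all 14 libraries holds 1286 regions, the cerebrum-only corner 61 and the cerebellum-only corner 12.

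Among the cerebrum-only regions, with 0 peaks in the 6 cerebellum libraries, fold enrichments are given as the lowest, median and highest of the 8 cerebrum libraries. Chrm1, the M1 muscarinic acetylcholine receptor, had folds of 22.8, 27.6 and 43.1, and its region near the stop codon was called in 8 cerebrum and 2 cerebellum libraries. D130040H23Rik had 26.5, 37.7 and 51.2, and Egr3 had 17.8, 22.5 and 37.1, with no separate region near the stop codon of either. The D130040H23Rik region, of 1293 nt, was itself wider than the last exon of 1172 nt. The DRACH nearest its strongest summit lay within 200 nt of a stop codon.

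BC005561 (20.2, 23.8 and 38.8), the zinc finger gene Zfp292 (9.60, 16.3 and 19) and Zdbf2 (13.5, 20.1 and 26.7) were long last exons with several regions. Tubb3, the β-tubulin that marks neurons, had a region of 250 nt with folds of only 1.79, 3.08 and 3.94 in cerebrum, while its region near the stop codon was called in all 14 libraries. Of the 6 cerebellum libraries, which all lacked these last-exon regions, a region near the stop codon of the same gene was thus called in 6 for Tubb3, and it was called in 4 for Zdbf2, 2 for Chrm1 and 1 for BC005561.

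The cerebellum-only regions had mean percentiles of 35.1 to 73.9 among those named. Nefm, at 73.9, the medium neurofilament subunit, had 3.09, 4.26 and 4.49 (lowest, median and highest of the 6 cerebellum libraries) over 851 nt of chromosome 14, and its strongest summit had no DRACH within 25 nt. Pnn, a protein of the exon junction periphery and nuclear speckles, at 54.7, had 2.38, 4.12 and 4.62. Its region near the stop codon was called in 1 cerebellum and 7 cerebrum libraries, the other way round.

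Sp5 had 5.06, 8.36 and 9.28, Ripk2 8.33, 10.5 and 16.3, and Srsf4, a splicing factor with a serine-arginine domain in its last exon, 3.14, 4.56 and 5.45. Mmp15, a membrane-anchored metalloproteinase, had 3.43, 5.71 and 9.99, and Hmgn5, a nucleosome-binding protein, 4.89, 5.93 and 7.83. In Mmp15 the DRACH nearest the strongest summit lay within 200 nt of a stop codon. Erich3, a gene of ciliated cells, had 5.28, 8.57 and 18.2, while its region near the stop codon was called in all 14 libraries. In these genes all 6 cerebellum libraries and 0 cerebrum libraries had the region.

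In several genes with the most last-exon coding regions, regions along single exons were called more often in cerebrum. The genes were ranked by regions merged over all 14 lists, and cerebrum gave more and longer lists. A cerebrum excess is thus partly built into the choice. Regions of the same transcript are not independent, so the counts are a description with no test. Over all tested regions 7.78 percent were called higher in cerebrum. Ahnak, a giant scaffold protein, held 23 regions, which together spanned 9001740 to 9018135 of chromosome 19 (plus strand), in a last exon with 16623 nt of coding sequence. Only the region 15141 nt after the junction was called in all 14 libraries, 8 regions were called higher in cerebrum, and a region was present in a median of 6 cerebrum and 0 cerebellum libraries. Zdbf2 held 10 regions, of which 7 were called higher in cerebrum and none was in all 14 libraries. The region of Zdbf2 that most cerebellum libraries had, 3 of 6, lay 5472 nt after the junction, out of 7303 nt of coding sequence.

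Usf3, a relative of the upstream stimulatory factors, held 9 regions, with only the last, at 5854 nt, in all 14. Zfp518a held 6, again with the last, at 4177 nt, in all 14. Plec, which codes the cytoskeletal linker plectin, had 6 of its 7 regions in all 14 libraries. Only the remaining region could be tested by tissue, and it was not called. BC005561, Mast4 and Zfp292 held 6 each and Disp1 5, with 3, 0, 1 and 0 regions called by tissue, all higher in cerebrum.

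**Figure D5:**
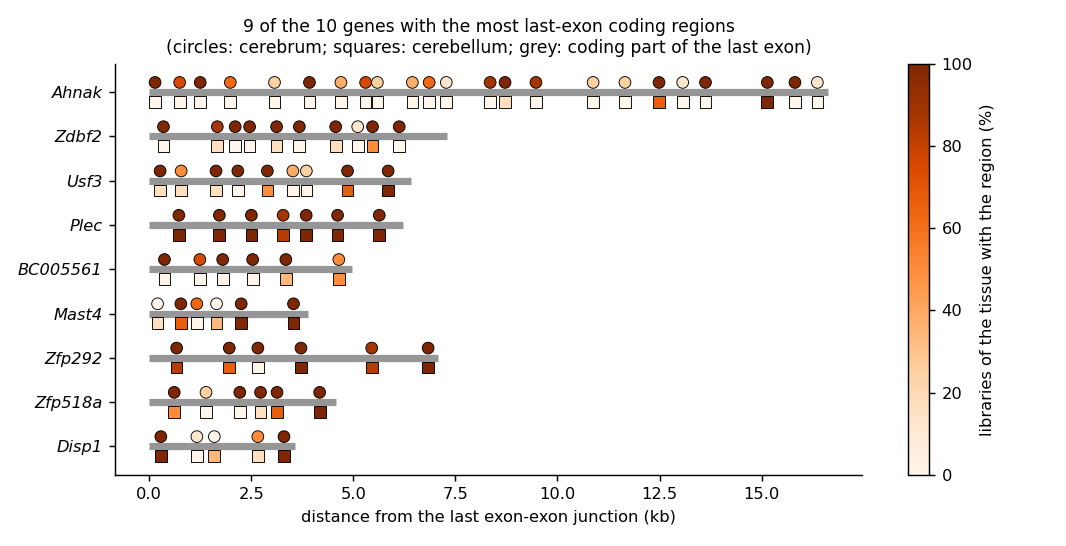
Last-exon coding regions of 9 of the 10 genes with most of them, by distance of the midpoint from the last exon-exon junction in kb; circles show cerebrum and squares cerebellum, coloured by the percentage of libraries with the region, over the coding part of the exon in grey. In Usf3 and Zfp518a the region farthest from the junction is in all 14 libraries, whereas 6 of 7 regions of Plec are.

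Last-exon coding regions were also counted over lists of gene families, drawn up with earlier results of these data known. The place of the strongest summit was looked up for up to 1 region per list. The DRACH nearest it was within 200 nt of a stop codon in Zfp148, Frs2, Kcnf1, Kcnj12, Ier5l and Hist2h2be. In Arid1a it was in coding sequence farther away. Among these lists the zinc finger genes gave the most regions, 454. Of 251 zinc finger regions tested by tissue, 37 were called higher in cerebrum and 2 higher in cerebellum, or 14.7% and 0.797%, beside 7.78 and 1.87 percent of all regions and 14.3% and 1.54% in long internal exons. The 2 were in Zfp281 and Zfp526. The median mean percentile of the 454 was 45.1, beside 49.8 over all last-exon coding regions. Their strongest member, Zfp148, had folds of 37.0, 50.8 and 61.9 in cerebellum and 91.2, 106 and 121 in cerebrum, and Zbtb14 had 38.4, 54.1 and 58.2 and 88.5, 115 and 136. Zfp703 and Zbtb22 were likewise called in all 14 libraries, at mean percentiles of 95.7 and 95.2.

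Leucine-rich repeat adhesion proteins of neurons had regions in 30 of 38 listed genes. Of their 47 regions 37 were in all 14 libraries, and the median mean percentile was 80.5. Of 10 tested, 1, in Flrt1, was called higher in cerebrum, too few to set beside the 7.78 percent of all regions. Rtn4r, the Nogo receptor, had folds of 46.6, 54.8 and 80.1 in cerebellum and 142, 163 and 209 in cerebrum, and Lrrtm1, an organiser of excitatory synapses, 44.7, 55.1 and 79.9 and 129, 195 and 215.

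Chromatin regulators had 16 regions in 11 of 31 listed genes, 13 of them in all 14 libraries, with a median mean percentile of 83.5. Of the 3 tested by tissue 0 were called, too few to set beside the 7.78 and 1.87 percent of all regions. Arid1a and Arid1b, subunits of the SWI/SNF remodelling complex, had 29.7, 38.5 and 48.0 in cerebellum and 61.9, 82.2 and 96.5 in cerebrum, and 36.0, 43.2 and 50.8 and 89.6, 133 and 170. Nsd1, a histone H3 methyltransferase, had a mean percentile of 96.7. Frs2 and Frs3, docking proteins of fibroblast growth factor receptors, were the only 2 of 12 listed receptor adaptors with a region, each in all 14 libraries.

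Transcription factors with few or no introns had 28 regions in 24 of 41 listed genes, 21 of them in single-exon transcripts and 10 in all 14 libraries. Pou3f2, a neuronal POU factor, had folds of 38.9, 48.5 and 61.8 in cerebellum and 105, 131 and 173 in cerebrum. Sox2, a factor of neural stem cells, had 32.3, 37.6 and 57.7 and 40.2, 51.3 and 59.1, and Sox12 had 25.3, 27.6 and 28.3 and 29.4, 33.4 and 40.4.

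Among ion channels, the voltage-gated potassium channels had 24 regions in 17 of 34 genes with 8 in all 14 libraries, and 3 of 16 tested were called higher in cerebrum, in Kcng1, Kcng3 and Kcnh3, beside 7.78 percent of all regions. Kcnf1 had folds of 23.4, 34.3 and 74.4 in cerebellum and 99.0, 125 and 163 in cerebrum, and Kcnq3, Kcna4 and Kcns2 were also in all 14 libraries. The inward rectifiers had 10 regions in 6 of 12 genes, 8 in all 14. Of the 2 tested by tissue 0 were called, too few to set beside the background. Kcnj4 had 4.76, 9.31 and 23.8 in cerebellum and 65.3, 108 and 238 in cerebrum, whereas Kcnj12 had 22.8, 33.9 and 54.1 and 20.1, 32.9 and 53.1.

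G protein-coupled receptors had 77 regions in 50 of 67 genes, 28 of them in single-exon transcripts and 32 in all 14 libraries, and 4 of 45 tested, in Chrm1, Drd1, Gpr6 and Lpar4, were called higher in cerebrum, near the background of 7.78 percent. Drd1 codes the D1 dopamine receptor of the striatum, which belongs to the cerebrum. Cnr1, the CB1 cannabinoid receptor, had 28.5, 30.1 and 38.3 in cerebellum and 50, 57.7 and 62.1 in cerebrum, and its strongest summit had no DRACH within 25 nt. Gpr85, Gpr162 and Fzd9 were in all 14 libraries with mean percentiles of 94.4 to 96.5.

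Immediate early genes had 10 regions in 10 of 28 genes, 4 of them in all 14 libraries, and 3 of 6 tested were called higher in cerebrum, all of the Egr family (Egr2, Egr3 and Egr4), beside 7.78 percent of all regions. Egr1 was in all 14, with 12.9, 15.9 and 24.0 in cerebellum and 45.6, 66.5 and 79.9 in cerebrum. Dusp1 and Ier5l were in all 14 as well. The clustered protocadherins, cell-surface proteins that give neurons an identity, had 61 regions in 23 of 57 genes, 60 of them in single-exon transcripts alone. Of these regions 27 were in all 14 libraries and 5 of the 34 tested were called higher in cerebrum, beside 7.78 percent of all regions, and their copies are similar enough for reads to be misplaced. Of 89 histone genes 2, Hist2h2be and H1fx, held a region, in 14 and 5 libraries.

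Age was compared within cerebrum. P0 libraries held 1944 to 2102 last-exon coding regions and P7 libraries 1811 to 1931, a mean of 2025 ± 65.1 against 1877 ± 56.2 (SD, n = 4 each; difference −148, two-sided exact permutation p = 0.0286, the smallest possible; adjusted p = 0.0333 over 7 measures), but with lists of equal size the difference was 24.2 in the other direction (p = 0.257). It did not pass without the P0 female F1i library (−122) or without any 1 of the 4 P7 libraries (−126 to −166; exact permutation p = 0.0571 each). Their share of all regions was 9.0% ± 0.238 at P0 and 10.9% ± 0.256 at P7 (difference 1.87 points, same exact permutation p), and 0.665 points at equal list size with no overlap. Without the P7 cerebrum F1r libraries the differences were −194 regions and 2.09 points, where an exact test of 4 against 2 cannot go below p = 0.0667. Per long internal region there were 0.652 at P0 and 0.695 at P7 (log2 difference 0.09), and zinc finger regions per other region were 0.243 and 0.21 (log2 difference −0.21), both with exact permutation p = 0.0286. In cerebellum, with 2 libraries at P0, the means were 1767 ± 56.6 at P0 and 1690 ± 81.3 (n = 4) at P7 and were not tested.

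In cerebrum 39 of 722 regions, or 5.40%, were called in all P0 and no P7 libraries, beside 8.58 percent of all regions, and 19, or 2.63%, in all P7 and no P0 libraries, beside 0.889 percent. Equal list size gave 22 and 33. A 4 against 4 test of single regions cannot pass correction, and without the P7 cerebrum F1r libraries the counts rose to 86 and 22. With fewer P7 libraries the rule is met more easily. The share over all regions was not counted in either setting. Of the 39, 16 were in 0 cerebellum libraries. In zinc finger genes it was 13 of 165 regions, or 7.88%, which is near the background.

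Zrsr1, an imprinted retrogene for a splicing factor, had folds of 8.27, 7.87, 7.47 and 5.49 in the 4 P0 cerebrum libraries and 4.31 to 9.19 in all 6 cerebellum libraries. Zfp773 had 15, 13.3, 12.1 and 14.6 in P0 cerebrum and was called in 2 cerebellum libraries, those of P0. Has2, a hyaluronan synthase, had 12.4, 8.00, 10.0 and 11.8 and was called in 3 cerebellum libraries, and Zfp184 had 13.3, 7.42, 13.8 and 9.83 and was called in 1. None of the 4 had a peak in P7 cerebrum.

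Of the P7 regions, Gpr37l1, a receptor of glia, had 13.7, 16.4, 13.5 and 9.81 in the P7 cerebrum libraries, and was called in 5 of 6 cerebellum libraries. Mas1, a receptor for angiotensin 1-7, had 21.4, 17.7, 16.2 and 14.4 and was called in 0 cerebellum libraries, as was Ankrd63 with 19.1, 15.6, 15.7 and 14.9. Slc17a8, the vesicular glutamate transporter VGLUT3, had 10.7, 13.5, 9.26 and 18.2 and was called in all 6 cerebellum libraries.

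The crosses were compared within pairs. Over the 7 pairs the number of regions in F1r minus F1i was 14.7 on average (from −94 to 105; two-sided exact sign-flip permutation p = 0.641, adjusted p = 0.906), and the share of all regions differed by −0.05 points (p = 0.812, exact), with F1r higher in 4 of 7 pairs in number and in 3 of 7 in share. Both means changed sign when pairs were left out. Of 1215 regions, 1 was called in F1r only in at least 5 pairs and in no pair in F1i only, beside 0.0485 percent of all regions, and 1 the other way round, beside 0.0404 percent.

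The F1r region was in Peg3, an imprinted zinc finger gene read from the paternal copy, on chromosome 7 (6710046 to 6710288, minus strand), with folds of 3.28, 3.38 and 4.59 in the cerebellum F1r libraries and 5.47, 5.96 and 3.76 in 3 of the 4 cerebrum F1r libraries. It was called in 1 F1i library, P7 cerebellum male, at 2.39, and the gene's region near the stop codon was called in all 14. The F1i region was in Tceal5, an X-linked transcription elongation factor relative (136201350 to 136201485, minus strand), with folds of 3.09, 4.08 and 2.96 in the cerebellum F1i libraries, 9.04, 5.16 and 5.76 in 3 of the 4 cerebrum F1i libraries and 4.4 in 1 F1r library, that of P7 cerebrum labelled male. Both were weak regions, with mean percentiles of 29.2 and 31.6.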

How the data were processed

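The 14 IP libraries were sequenced from RNA that the labels call polyA RNA; the methods describe both polyA selection and rRNA depletion. According to the methods the authors trimmed adapters with cutadapt, processed reads and extracted molecular identifiers with fastp 0.21.0, aligned them with HISAT2 2.1.0, keeping 1 alignment per read, to an mm10 genome with strain variants masked, and counted allelic reads at m6A sites with featureCounts 1.6.0. They called peaks per library and strand with MACS2 2.1.2, with no model and reads extended to 80 nt. The control library of the calls is not given in the sources used here. The deposited peak lists hold, per the file format, a score, a fold enrichment (a ratio of pileup over local background) and −log10 p and −log10 q values, all set by the authors' caller within 1 list. The lowest −log10 q of a list was 1.30 to 1.41. Depth was read only as a relative value from pileups (99.9% or more came out whole within 0.001 in −log10 p), and duplicates were removed by their molecular identifiers, and enrichment from shallow lists is less precise.

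Peaks of all lists were merged per strand, placed on the GENCODE M21 basic annotation, and classed by the midpoint, with Python 3.11.15, numpy 2.4.6, scipy 1.17.1, pysam 0.24.0 and matplotlib 3.10.9. Libraries were compared by exact permutation of tissue or age, or by sign flips over the 7 matched pairs (cross) or the 14 libraries (classes). Single regions were compared by Fisher's exact test with Benjamini-Hochberg adjustment. The test of single regions was run on simulated data. The permutation and sign-flip functions were checked only on short lists of numbers with known answers. The pairs join F1i and F1r libraries of the same tissue, age and labelled sex. Motifs were sought in the C57 reference, on the strand of the peak.

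Genes were named by rule: up to 8 regions per direction found in all libraries of a tissue and 0 of the other, the 10 genes with most regions, the 6 single-exon and 6 multi-exon regions of highest mean percentile in all 14 libraries, up to 4 age-exclusive regions and 5 cross-directed regions per direction, and up to 4 genes per gene list. Genes named only because a small count fell on them were added after their values were seen. The regions and lists were chosen with earlier results of these data known, and the zinc finger, motif-by-tissue and stop-distance measures were added later. Alternatives changed the −log10 q minimum (3), list size, cover (50%), distance to stop codons (400 nt), placing by summit, first exons, the motif and its window (50 nt), the exon length (1000 nt) and the libraries used. Input libraries were not used here. Some genes and sequences that these rules select are not reported here.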

Additional observations from a re-analysis of the deposited data

Results flagged for a closer look

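In the 4 P7 cerebellum libraries, the female F1i library held 0.831 last-exon coding regions per coding region in long internal exons, apart from the others at 0.717 to 0.735. In the same group, the male F1r library held 0.191 zinc finger regions per other last-exon region, apart from 0.180 to 0.182. These were the 2 samples far from the rest in 60 groups of values over 10 measures, and chance alone gives such a gap in about 1 of 20 groups.

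The change from P0 to P7 in last-exon coding regions per region near a stop codon differed between the tissues, by 0.10 on the log2 scale for cerebrum minus cerebellum (exact permutation p = 0.00381, adjusted p = 0.0267 over 7 measures). It rests on 2 cerebellum libraries at P0, and the within-cerebrum change alone had an exact permutation p of 0.486.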

How the results depend on the processing

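Of 340 alternative values, 294 were classed as unchanged. Those with a p-value kept their direction and side of the threshold. For counts of regions only the total had to stay near the main one, so the split between directions could change. The tissue difference in share no longer passed in P7 libraries alone (−0.436 points), at equal list sizes (−0.390), in libraries labelled male (−1.19) and over 400 nt from stop codons (−0.541), nor did the count at equal list sizes (35.0). In cerebrum, the age difference in count reversed at equal list sizes (24.2). Without the P7 cerebrum F1r libraries, where 4 against 2 cannot pass, the age differences were −194 regions, 2.09 points of share and −0.20 in log2 zinc finger ratio, and single leave-outs gave −175 to −122 regions, 5 of 8 of which did not pass (exact permutation p = 0.0571). The cross difference in share reversed over 400 nt from stop codons (0.00877) and without both P7 cerebrum pairs (0.108), that in count without both pairs (−16.4), and leaving out single pairs gave −0.141 to 0.0259 points and −0.333 to 32.8 regions. With no replicate block, that is without the pairing, they were −0.05 points (p = 0.819) and 14.7 regions (p = 0.694, exact permutation), so the pairing changed no call.

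Regions called by tissue numbered 0 in P7 or male-labelled libraries alone, where 4 against 4 cannot pass, 77 without the P7 cerebrum F1r libraries and 74 to 166 with single libraries left out. Age-exclusive regions numbered 105 with 50% cover and 108 without the P7 cerebrum F1r libraries. Cross-directed regions numbered 1 with 50% cover, 4 at equal list sizes, 1 over 400 nt from stop codons, 1 without both P7 cerebrum pairs and 0 to 1 with a pair left out. For these counts the share over all regions was not worked out under the alternatives. Against long internal exons the motif difference was −0.290 points for any DRACH, and 7.22 for GGAC against short internal exons instead. Between zinc finger and other regions it was 1.49 for any DRACH. The causes were not tested. Depth limits weak regions most, since a peak missing from a shallow list is not shown to be absent.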
